A study of Homo sapiens with 27 samples.

Results

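Adding siRNA against VPS37B to cells already given siRNAs against VPS37A and VPS37C was examined here, as the siVPS37ABC#1 libraries (3) against the siVPS37AC#1 libraries (3), written siVPS37ABC and siVPS37AC below. These 6 of the study's 27 libraries were chosen by their labels, and each siVPS37ABC library was paired with the siVPS37AC library of the same replicate number. All are RNA from DLD1, a human colorectal carcinoma line, collected 72 h after transfection and measured with an amplicon panel for human transcripts. siVPS37AC cells received siRNA sequence #1 against VPS37A and sequence #1 against VPS37C. siVPS37ABC cells received the same pair of siRNAs together with sequence #1 against VPS37B, so the knockdown of VPS37A and VPS37C is shared by both groups. Where the same addition was compared in other cells, 6 further groups of 3 libraries were used: siCTRL (non-targeting siRNAs), siVPS37B, siVPS37A, siVPS37AB, siVPS37C and siVPS37BC, each with sequence #1 of the siRNAs it names. Each paralog was targeted by 1 siRNA sequence, and how much siRNA each group received in total is not given in the sources used here. The 3 replicates are called biological in the labels and carry a batch number equal to the replicate number.

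VPS37 proteins are subunits of ESCRT-I, a complex on endosomes that also holds TSG101, VPS28 and either an MVB12 subunit or UBAP1. ESCRT-I binds ubiquitinated membrane proteins and passes them to ESCRT-II and ESCRT-III, which sort them into vesicles inside endosomes for degradation in lysosomes. The paralogs VPS37A, VPS37B, VPS37C and VPS37D occupy the same place in the complex, so that a cell can keep ESCRT-I when a single paralog is lost. Receptors that are not sorted can go on signalling from endosomes, among them the EGF receptor, which acts through MAP kinases, and receptors of the TNF family, which act through NF-kB.

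Levels are in TPM, transcripts per 1000000. Differences are of log2(TPM + 1), siVPS37ABC minus siVPS37AC, with the standard error (SE) of a limma model of all 27 libraries that holds a mean for each group and a term for the replicate number (n = 3 per group). Folds are 2 to the power of that difference, which understates the change of genes with few TPM. A gene is called higher or lower where its Benjamini-Hochberg adjusted p from this model is below 0.05 over the 6458 genes whose mean over the 27 libraries reached 10 TPM. Genes under that mean come from the same model fitted to all 10470 genes, over which their p is adjusted, and are marked as low. "Without the block" refers to the same model with no term for the replicate number.

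VPS37B, the added target, stood at 58.8, 79.02 and 54.7 TPM in siVPS37AC replicates 1 to 3 and at 2.82, 3.43 and 4.08 TPM in siVPS37ABC. The groups were far apart, with a fall of 14.6-fold (log2 -3.87 ± 0.18, adjusted p = 5.14e-14), and every siVPS37ABC library still held VPS37B reads (33, 43 and 86, against 1127, 1224 and 992 in siVPS37AC). VPS37A was low in both groups, at 0.593, 0.464 and 0.528 TPM and 0.153, 0.574 and 0.539 TPM, against 5.80 ± 0.927 TPM (mean ± SD, n = 3) in siCTRL. These VPS37A values rest on 3 to 19 reads per library, and its difference (low, -0.12 ± 0.13, adjusted p = 0.621) was smaller than its SE. VPS37C was at 3.11, 4.25 and 4.69 TPM in siVPS37AC and 4.32, 4.20 and 3.41 TPM in siVPS37ABC, with overlapping groups, against 17.5 ± 1.73 TPM in siCTRL. Its difference was -0.00 ± 0.20 (adjusted p = 0.995), a value whose sign changed with the scaling and with the libraries used. The transcripts whose knockdown both groups share were thus not called different, with VPS37A below its siCTRL level in every library and VPS37C likewise.

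Transcripts of the other subunits of ESCRT-I did not pass the test. TSG101 was at 92.5, 111 and 101 TPM in siVPS37AC and 104, 131 and 112 TPM in siVPS37ABC (0.18 ± 0.10, adjusted p = 0.247). VPS28 (0.28 ± 0.19, adjusted p = 0.359) and UBAP1 (0.10 ± 0.17, adjusted p = 0.755) also overlapped between the groups, and none of these 3 tested subunits had an unadjusted p below 0.05 in limma or in its voom variant. Among 23 tested genes of ESCRT-0, ESCRT-II, ESCRT-III and the VPS4 ATPases, 3 rose and 0 fell. CHMP2B, a filament subunit of ESCRT-III, rose in each pair, from 208, 188 and 199 TPM to 377, 314 and 298 TPM (0.72 ± 0.12, adjusted p = 0.00019). CHMP1B, another ESCRT-III subunit, rose by 0.63 ± 0.13 (adjusted p = 0.00188). HGS, the ESCRT-0 subunit that recruits ESCRT-I, rose by 0.41 ± 0.10 (adjusted p = 0.0101), a call lost without the block (0.278). The 23 genes had a median difference of 0.10, and all tested genes one of -0.04.

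Of the 6458 genes tested, 789 (12.2%) were called, 375 higher (5.81%) and 414 lower (6.41%) in siVPS37ABC. Differences above 2-fold were 41 among the higher calls (0.635% of tested genes) and 10 among the lower calls (0.155%). Without the block 281 genes (4.35%) were called, 159 higher (2.46%) and 122 lower (1.89%), and all 281 are among the 789. The 3 values of each group did not overlap for 1486 genes (23% of tested genes). The libraries of siVPS37ABC held 7452130, 8228867 and 14252058 reads and those of siVPS37AC 12266245, 10166915 and 11911077. Replicate 3 of siVPS37ABC was the deepest of all 27 libraries and also the farthest along the first principal component, at 30.7 against 12.0 and 18.1 for replicates 1 and 2. Without that library 713 genes were called, of which 552 are among the 789. Without siVPS37AC replicate 3 there were 706, with 593 among the 789, and without both libraries 698, with 511 among them. The count was 470 without siVPS37ABC replicate 1 (449 among the 789) and 501 without siVPS37ABC replicate 2 (476). It was 397 without siVPS37AC replicate 1 (390) and 507 without siVPS37AC replicate 2 (491). Counts of called genes below are read against the shares given here, all tested genes had a median difference of -0.04, and no gene list was tested as a set. Genes are named by the rule given with the processing, and list members beyond it were chosen after their values were seen.

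**Figure D1:**
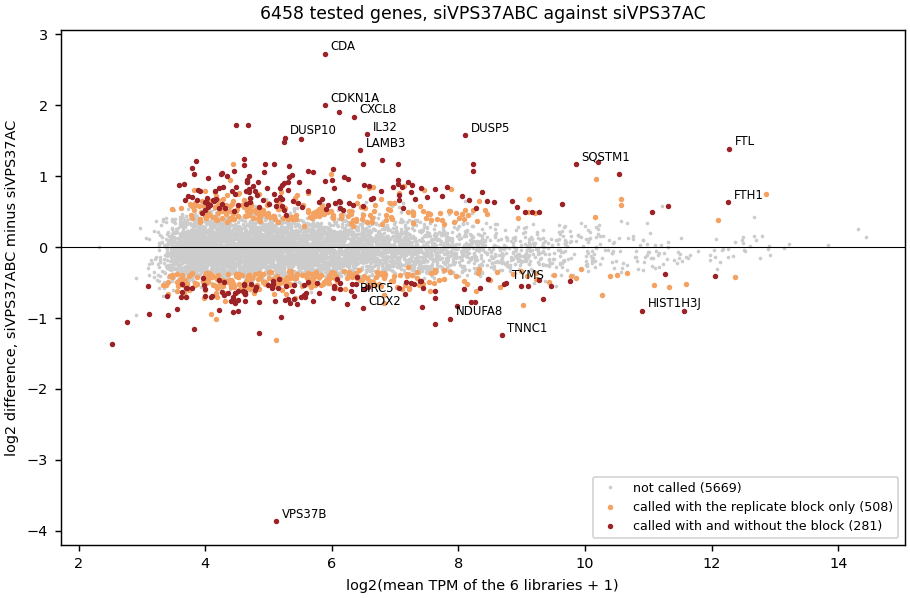
Each point is 1 of 6458 tested genes, with log2 of its mean TPM + 1 over the 6 libraries on the x axis and its log2 difference (siVPS37ABC minus siVPS37AC) on the y axis. Grey genes were not called, orange genes (508) were called with the replicate block only and dark red genes (281) with and without it. VPS37B lies alone at the bottom, and more genes lie above 1 than below -1.

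The highest rises among well expressed genes (averaging 50 TPM or more over the 6 libraries) joined enzymes, cell cycle inhibitors, cytokines and surface receptors. CDA, the cytidine deaminase of pyrimidine salvage, went from 9.42, 23.3 and 13.5 TPM in siVPS37AC to 94.2, 113 and 97.01 TPM in siVPS37ABC, a 6.63-fold rise (2.73 ± 0.19, adjusted p = 5.07e-10). CDKN1A, which encodes the cyclin-dependent kinase inhibitor p21, went from 15.96, 30.1 and 23.4 TPM to 87.2, 88.8 and 103 TPM (3.99-fold, 1.998 ± 0.22, adjusted p = 1.3e-06). In both genes the lowest siVPS37ABC library lay far above the highest siVPS37AC library. KRTAP2-3, a keratin-associated protein gene, went from 32.7, 22.96 and 28.5 TPM to 101, 90.6 and 134 TPM (1.91 ± 0.19, adjusted p = 3.89e-07). PLAUR, the urokinase receptor at the cell surface, went from 78.8, 78.9 and 82.8 TPM to 182, 170.2 and 193 TPM (1.17 ± 0.14, adjusted p = 7.48e-06). The KRTAP family has closely related copies whose reads the authors' counting could have shared, so the value of KRTAP2-3 is uncertain.

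A list of genes that NF-kB is known to induce had 17 tested members. Of these 8 rose, 0 fell and 9 were not called, with a median of 0.43 (7 rose without the block). CXCL5, a chemokine outside this list named after its value was seen, was called lower (log2 -0.45). CXCL8, the chemokine that attracts neutrophils, stood at 23.98, 46.1 and 34.8 TPM in siVPS37AC and 99.5, 115 and 162 TPM in siVPS37ABC, 3.57-fold higher (1.83 ± 0.31, adjusted p = 0.000232). IL32, a proinflammatory cytokine, stood at 40.5, 54.3 and 43.1 TPM and 115, 153 and 154 TPM (3.01-fold, 1.59 ± 0.23, adjusted p = 3.92e-05). The groups did not overlap for either cytokine. TNIP1, an adaptor that restrains NF-kB signalling, rose from 110.0, 105 and 108 TPM to 212, 196 and 187 TPM (0.87 ± 0.14, adjusted p = 0.000118). NFKBIA, the inhibitor IκBα, rose by 0.69 ± 0.12 (adjusted p = 0.000385), with siVPS37AC replicate 3 (105 TPM) close to the lowest siVPS37ABC library (109.7 TPM). The subunits NFKB2 (0.89 ± 0.16) and RELB (0.83 ± 0.16), the chemokine CXCL2 (1.004 ± 0.23) and the inhibitor NFKBIE (0.65 ± 0.18, adjusted p without the block = 0.0602) were the other 4 members called.

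Members with low levels moved both ways. The growth factor CSF2 (low) rose from 10.2, 9.75 and 12.5 TPM to 21.1, 26.3 and 31.4 TPM (1.20 ± 0.21, adjusted p = 0.000352). The deubiquitinase TNFAIP3, a feedback inhibitor of NF-kB, was also low and rose by 0.54 ± 0.15 (adjusted p = 0.0173, without the block 0.102). CD83 (low), a surface protein of activated immune cells, fell by 0.79 on the log2 scale (adjusted p = 0.00109). CXCL3 was at 10.1 TPM in siVPS37AC and 9.86 TPM in siVPS37ABC (log2 -0.07 ± 0.22, adjusted p = 0.886). None of 8 tested kinases and adaptors upstream of NF-kB was called in limma (1 had an unadjusted p below 0.05, and voom called 0), the nearest being MAP3K14 (0.38 ± 0.18, adjusted p = 0.184) and the subunit RELA (0.41 ± 0.20, adjusted p = 0.194). Of 8 tested receptors of the TNF family, FAS, a death receptor, fell by 0.40 on the log2 scale (adjusted p = 0.0206, without the block 0.0681) and 0 rose. The costimulatory receptor TNFRSF9 (low) rose from 0.745, 1.55 and 0.788 TPM to 2.12, 2.91 and 4.43 TPM (1.02 ± 0.18, adjusted p = 0.000463). EDAR (low), the receptor for ectodysplasin, fell by 0.70 on the log2 scale (adjusted p = 0.00389, without the block 0.168), with overlapping groups.

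CXCL8, CXCL2, CXCL3, NFKBIA and IL32 carry motifs of NF-kB or of AP-1 in their RefSeq promoters (GRCh38.p14, 250 bases before to 50 after the gene start). AP-1 is the dimer of FOS and JUN proteins. Windows of these promoters are shown with the motif in capitals, 5′ to 3′ on the strand of the gene, to show called members of the list beside CXCL3, which was not called, and overlapping matches shifted by a base are shown 1 time.
CXCL8, AP-1 motif, chr4:73740422-73740448, + strand: ggaagtgtgaTGACTCAggtttgccct
IL32, NF-kB motif, chr16:3065295-3065324, + strand: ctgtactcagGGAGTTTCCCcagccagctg
CXCL2, NF-kB motif, chr4:74099253-74099282, - strand: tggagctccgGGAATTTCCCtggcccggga
CXCL3, NF-kB motif, chr4:74038748-74038777, - strand: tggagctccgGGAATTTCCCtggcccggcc
NFKBIA, NF-kB motif, chr14:35404811-35404840, - strand: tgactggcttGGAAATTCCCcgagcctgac
The windows of CXCL2, which was called, and of CXCL3, which was not, hold the same motif letters. In the NF-kB list 7 of 14 members with a promoter in the RefSeq table held the motif, among them 3 of the 6 called members that had one.

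Of 13 tested dual-specificity phosphatases 5 rose, 1 fell and 7 were not called, with a median of 0.18 (3 rose and 0 fell without the block). Several of the listed phosphatases, and not all, remove the activating phosphates from MAP kinases. DUSP5, specific for ERK, stood at 118, 176 and 122 TPM in siVPS37AC and at 387, 402 and 439 TPM in siVPS37ABC (2.98-fold, 1.58 ± 0.16, adjusted p = 5.25e-07). DUSP10, which acts on JNK and p38, stood at 16.9, 19.5 and 19.01 TPM and 50.4, 52.1 and 64.9 TPM (2.91-fold, 1.54 ± 0.14, adjusted p = 1.01e-07). For both, the lowest siVPS37ABC library was at least double the highest siVPS37AC library. DUSP8, another phosphatase for JNK and p38, rose by 1.07 ± 0.15 (adjusted p = 3.74e-05). DUSP1, an immediate early phosphatase, rose by 1.03 ± 0.25 (adjusted p = 0.00754, without the block 0.0694). DUSP6, another phosphatase for ERK, was at 191, 181 and 166 TPM and 145, 149 and 155 TPM and was not called (-0.25 ± 0.19, adjusted p = 0.414), and DUSP7 fell by 0.58 on the log2 scale (adjusted p = 0.0369, without the block 0.152).

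Of 20 tested genes in a list of immediate early and AP-1 genes downstream of MAP kinases, 8 rose and 1 fell, with a median of 0.42 (7 and 0 without the block). KLF6, a zinc finger factor induced by growth signals, went from 30.2, 32.2 and 29.9 TPM to 62.1, 65.8 and 69.5 TPM (1.07 ± 0.14, adjusted p = 1.63e-05). BHLHE40, a repressor induced by stress and hypoxia, went from 60.8, 80.4 and 55.04 TPM to 137, 139 and 184 TPM (1.22 ± 0.17, adjusted p = 2.57e-05). The AP-1 subunits JUND (0.94 ± 0.14, adjusted p = 3.92e-05) and FOSL2 (0.92 ± 0.18, adjusted p = 0.000866) rose as well. EGR1, an immediate early factor, was the member that fell, from 69.1, 38.9 and 36.9 TPM to 28.6, 15.4 and 13.6 TPM (-1.30 ± 0.26, adjusted p = 0.00142), and its call was lost without the block (0.123). Of 9 tested genes of the EGF receptor, its ligands and inhibitors, ERRFI1, a feedback inhibitor of the receptor, rose by 0.75 ± 0.17 (adjusted p = 0.00433, without the block 0.123). The ligand AREG rose by 0.68 ± 0.22 (adjusted p = 0.0476, without the block 0.25), so neither call of this list held without the block.

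**Figure D2:**
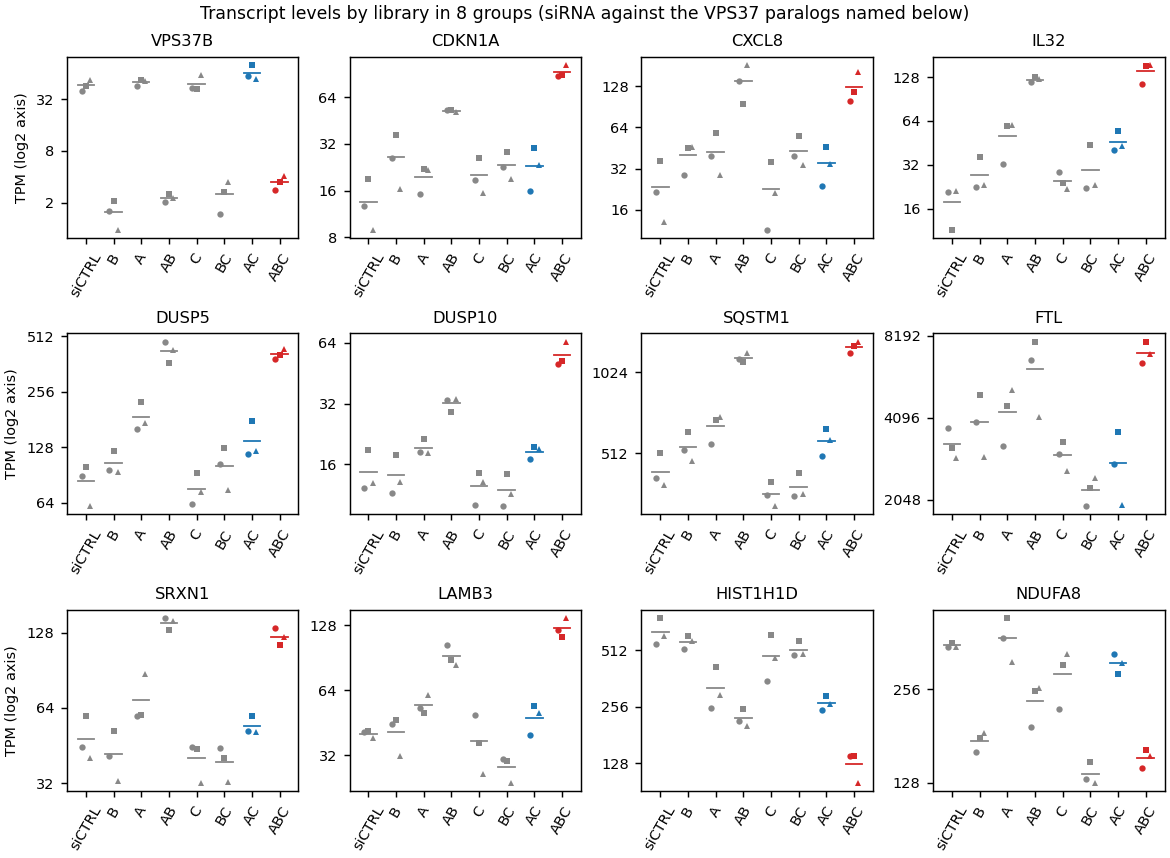
TPM of 12 genes (log2 axis) in 8 groups, named on the x axis by the VPS37 siRNAs they received, with circle, square and triangle for replicates 1, 2 and 3 and a bar at the mean. siVPS37AC is blue and siVPS37ABC red, and the red points lie apart from the blue ones for all 12 genes, below them for VPS37B, HIST1H1D and NDUFA8.

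Among the lists with at least 6 tested genes the largest share of called members was in targets of NRF2, the factor that induces antioxidant and detoxifying genes. Of 15 tested members 9 rose and 0 fell, with a median of 0.62 (7 rose without the block). SLC7A11, the cystine transporter for glutathione synthesis, went from 12.2, 24.8 and 21.4 TPM to 43.9, 61.2 and 58.7 TPM (2.79-fold, 1.48 ± 0.17, adjusted p = 3.32e-06). SRXN1, which repairs oxidized peroxiredoxins, went from 51.97, 59.6 and 51.5 TPM to 133, 114 and 123 TPM (1.17 ± 0.16, adjusted p = 3.41e-05). Neither gene's groups overlapped. The ferritin chains, which store iron, were among the most abundant transcripts and both rose. FTL, the light chain, went from 2777, 3628 and 1962 TPM to 6521, 7799.7 and 7005 TPM (2.62-fold, 1.39 ± 0.18, adjusted p = 1.81e-05). FTH1, the heavy chain, went from 3616, 4094 and 3835 TPM to 5366, 6430.5 and 6089.9 TPM (0.63 ± 0.10, adjusted p = 0.000124). Both ferritin genes have processed pseudogenes that may share their reads.

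The subunits of the enzyme that starts glutathione synthesis rose too, GCLM by 0.79 ± 0.17 (adjusted p = 0.00312) and GCLC by 0.62 ± 0.14 (adjusted p = 0.0035, without the block 0.121). The NADPH-producing malic enzyme ME1 (0.68 ± 0.15) and the quinone reductase NQO1 (0.46 ± 0.13, adjusted p without the block = 0.326) were also among the 9. The aldo-keto reductase AKR1B10 (low) went from 0.174, 1.40 and 0.829 TPM to 4.28, 5.87 and 10.5 TPM (2.11 ± 0.19, adjusted p = 1.01e-07). OSGIN1 (low), a growth inhibitor induced by oxidative stress, went from 5.53 ± 1.36 TPM to 20.9 ± 1.08 TPM (means ± SD, n = 3, log2 difference 1.76 ± 0.26, adjusted p = 5.35e-05). The antioxidant response element (ARE), the DNA motif known for NRF2 with small MAF proteins, is shown for the promoters of GCLM, with its 1 match, and ME1, with both of its matches.
GCLM, ARE, chr1:93909446-93909474, - strand: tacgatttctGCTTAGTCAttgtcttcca
ME1, ARE, chr6:83431170-83431198, - strand: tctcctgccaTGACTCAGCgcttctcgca
ME1, ARE, chr6:83431022-83431050, - strand: gctgcagtcaGCACCGTCAccccagcagc
The small MAF genes MAFG (0.74 ± 0.17, adjusted p = 0.00377) and MAFK (0.67 ± 0.20, adjusted p = 0.0258, without the block 0.0589) were called higher. In the list 4 of 12 members with a promoter held the motif, among them 2 of the 7 called members that had one.

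Of 18 tested genes of the unfolded protein response 6 rose and 0 fell, with a median of 0.20 (3 rose without the block). HERPUD1, a membrane protein of the degradation pathway for misfolded proteins, went from 77.1, 109 and 80.6 TPM to 159.7, 154 and 165 TPM (0.85 ± 0.17, adjusted p = 0.00124), and the co-chaperone DNAJB9 rose by 0.84 ± 0.20 (adjusted p = 0.0059). Of 23 tested ATF4 targets 6 rose and 1 fell, with a median of 0.17 (3 and 0 without the block). Besides SLC7A11, these included ATF3, a stress-induced repressor (1.06 ± 0.22, adjusted p = 0.00175), and the pseudokinase TRIB3 (0.56 ± 0.12, adjusted p = 0.00356). DDIT4, an inhibitor of mTORC1, overlapped between groups and was called with the block (0.82 ± 0.20, adjusted p = 0.00843, without the block 0.179). Of 18 tested hypoxia and glycolysis genes 5 rose and 0 fell, with a median of 0.27 (2 rose without the block), led by NDRG1, a stress-induced cytoplasmic protein, which went from 14.1, 35.8 and 21.1 TPM to 51.7, 68.5 and 77.9 TPM (1.52 ± 0.20, adjusted p = 1.49e-05).

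SQSTM1, the autophagy receptor p62 and itself an NF-kB and NRF2 pathway adaptor, went from 501, 629 and 571 TPM to 1212, 1280.5 and 1332 TPM (2.25-fold, 1.17 ± 0.12, adjusted p = 5.25e-07). It was 1 of 6 genes that rose among 20 tested genes of autophagy and the TFEB and TFE3 axis, with 0 lower and a median of 0.23 (4 rose without the block). WIPI1 (1.05 ± 0.17, adjusted p = 0.000149) and ATG2A (0.74 ± 0.13, adjusted p = 0.00045), both needed to build autophagosomes, and TFE3 itself (0.60 ± 0.14, adjusted p = 0.00431) were among them. Of 31 tested lysosomal genes 4 rose and 1 fell, with a median of 0.15 (2 and 0 without the block). The sialidase NEU1 went from 28.3, 37.8 and 39.8 TPM to 55.8, 59.99 and 69.4 TPM (0.80 ± 0.11, adjusted p = 3.64e-05), and the protease CTSH was the member that fell (-0.44 ± 0.10, adjusted p = 0.00591, without the block 0.0907). Of 26 tested sterol and fatty acid synthesis genes 4 rose and 0 fell, with a median of 0.18 (3 rose without the block). HMGCS1, an early enzyme of cholesterol synthesis, went from 122, 126 and 153 TPM to 175, 188 and 318 TPM (0.71 ± 0.16, adjusted p = 0.00451). The fatty acid elongase ELOVL6 (low) went the other way, from 10.8, 11.4 and 10.1 TPM to 4.94, 7.73 and 8.07 TPM (-0.60 ± 0.14, adjusted p = 0.00678, without the block 0.0342).

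Of 14 tested genes of the p53 and growth arrest list 3 rose, 1 fell and 10 were not called, with a median of 0.15 (2 rose and 0 fell without the block). Beside CDKN1A the risers were GDF15, a stress cytokine, from 769.8, 783 and 543 TPM to 2244, 1546 and 1152 TPM (1.20 ± 0.24, adjusted p = 0.00165), and GADD45A (0.62 ± 0.14, adjusted p = 0.00403, without the block 0.0876). CDKN2B (low), the inhibitor p15 of CDK4 and CDK6, went from 3.33, 3.31 and 2.71 TPM to 27.7, 19.1 and 13.3 TPM (4.92-fold, 2.30 ± 0.17, adjusted p = 2.1e-09). Its groups were far apart, and the spread was wider inside siVPS37ABC. In the BCL2 family 2 of 11 tested genes rose, BNIP3L, a mitophagy receptor (0.87 ± 0.16, adjusted p = 0.000554), and PMAIP1, the death promoter NOXA (0.83 ± 0.18, adjusted p = 0.00361, without the block 0.0558).

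Among 43 tested genes of replication and S phase 11 fell and 0 rose, with a median of -0.30 (4 fell without the block), and 40 of the 43 differences were below 0. TYMS, thymidylate synthase, went from 513, 469 and 535 TPM to 353, 358 and 356 TPM (-0.50 ± 0.10, adjusted p = 0.000959). GINS2 (-0.53 ± 0.10, adjusted p = 0.00119) and MCM6 (-0.48 ± 0.11, adjusted p = 0.00403), parts of the replicative helicase, fell to a like degree. Of 36 tested mitosis genes 0 rose and 6 fell, with a median of -0.25 (1 fell without the block). That gene was BIRC5, which encodes the chromosome passenger protein survivin and went from 103, 98.9 and 97.8 TPM to 56.8, 64.9 and 63.8 TPM (-0.68 ± 0.13, adjusted p = 0.00062). LMNB1, a nuclear lamina protein, fell from 94.4, 93.99 and 95.7 TPM to 48.4, 52.9 and 61.9 TPM (-0.80 ± 0.10, adjusted p = 1.49e-05). The counts of 0 rises come from limma, and voom on the recovered reads also called 0 higher in both lists.

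Histone genes were the largest group among the strongest falls. Of 28 tested core histone genes 12 fell and 0 rose, with a median of -0.38 (5 fell without the block), and of 6 linker histone genes 3 fell and 0 rose (2 fell without the block). HIST1H1D, a linker histone, was at 246, 293 and 265 TPM in siVPS37AC and 140.2, 140.3 and 101 TPM in siVPS37ABC, 2.11-fold lower (-1.08 ± 0.14, adjusted p = 1.01e-05). HIST1H3J was at 2755, 2336 and 2365 TPM and 1549, 1376 and 1096 TPM (-0.90 ± 0.11, adjusted p = 4.06e-06), and HIST1H2AH at 4688, 3931 and 3259 TPM and 2477, 2119.6 and 1750.4 TPM (-0.90 ± 0.12, adjusted p = 2.32e-05). For each of these the highest siVPS37ABC library lay below the lowest siVPS37AC library. HIST1H2BE (-0.83 ± 0.12, adjusted p = 6.32e-05), HIST1H2AJ (-0.78 ± 0.16, adjusted p = 0.0015) and HIST1H4L (-0.82 ± 0.16, adjusted p = 0.000914, without the block 0.103) were the others among the 12 largest falls. Because copies of histone genes are nearly alike in sequence, the value of any single member is uncertain. Of 30 tested ribosome biogenesis genes 9 fell and 0 rose, with a median of -0.27 (3 fell without the block), led by LYAR, a nucleolar protein (-0.58 ± 0.12, adjusted p = 0.00303), and NOLC1, a nucleolar scaffold (-0.45 ± 0.10, adjusted p = 0.00381). None of 69 tested ribosomal protein genes was called in limma or voom (1 higher and 2 lower had an unadjusted p below 0.05 in limma).

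**Figure D3:**
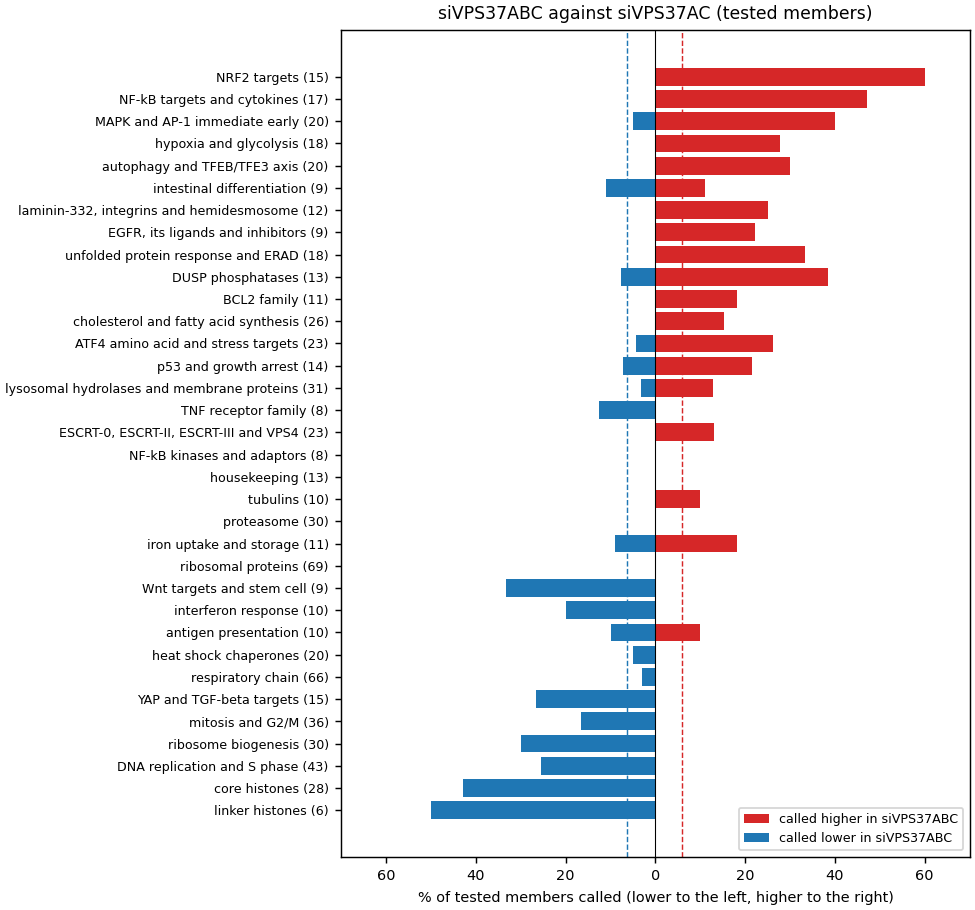
Bars give the % of tested members of 34 gene lists called higher (red, to the right) or lower (blue, to the left) in siVPS37ABC, ordered by the median log2 difference, with the number of tested members in parentheses. Dashed lines mark the shares among all tested genes (5.81% and 6.41%). NRF2 targets at the top reach farthest to the right, and the histone lists at the bottom reach farthest to the left.

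Genes of cell identity and adhesion moved in different directions. CDX2, an intestinal homeobox factor, fell from 105, 135 and 103 TPM to 58.9, 83.2 and 48.2 TPM (-0.87 ± 0.15, adjusted p = 0.000482), while KRT20, a keratin of differentiated intestinal cells, rose from 56.9, 46.5 and 40.3 TPM to 101, 92.3 and 93.7 TPM (0.99 ± 0.16, adjusted p = 0.000137). CLDN4, a tight junction protein, rose from 192, 199.6 and 185 TPM to 426, 351 and 447 TPM (1.08 ± 0.12, adjusted p = 3.32e-06). Groups did not overlap for these 3 genes. LAMB3, a chain of laminin-332 in basement membranes, rose from 39.6, 53.9 and 50.1 TPM to 121, 113 and 139 TPM (2.58-fold, 1.37 ± 0.17, adjusted p = 6.95e-06), and the fibronectin receptor chain ITGA5 by 0.79 ± 0.15 (adjusted p = 0.000722). Of 12 tested laminin and integrin genes 3 rose and 0 fell (2 rose without the block). Of 9 tested Wnt targets and stem cell genes 3 fell and 0 rose (1 fell without the block), led by AXIN2, a feedback inhibitor of Wnt signalling, from 68.9, 91.2 and 89.5 TPM to 47.7, 65.9 and 51.4 TPM (-0.59 ± 0.10, adjusted p = 0.00019). The stem cell marker LGR5 (low) went from 13.9, 14.6 and 16.6 TPM to 5.44, 5.75 and 9.74 TPM (-1.04 ± 0.16, adjusted p = 9.91e-05).

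Of 15 tested YAP and TGF-beta targets 4 fell and 0 rose, with a median of -0.21, and none of the 4 calls held without the block. CTGF, a matrix-associated growth regulator, was at 27.6, 13.97 and 22.8 TPM and 9.88, 7.94 and 13.9 TPM (-0.94 ± 0.21, adjusted p = 0.00377, without the block 0.0767). CYR61 (-0.59 ± 0.15, without the block 0.277), ID2 (-0.52 ± 0.14, without the block 0.269) and THBS1 (-0.44 ± 0.14, without the block 0.161) were the others, the values after "without the block" being adjusted p. The remaining large falls were in TNNC1, a calcium-binding troponin, from 839, 519 and 392 TPM to 287, 262 and 169 TPM (-1.24 ± 0.24, adjusted p = 0.00118), and GDPD3, a lysophospholipase D, from 216, 240.0 and 197 TPM to 125, 146 and 96.1 TPM (-0.84 ± 0.15, adjusted p = 0.000457). Neither gene's groups overlapped, and TNNC1 spread more than GDPD3 inside siVPS37AC. S100A4, a calcium-binding protein of motile cells, fell by 0.79 on the log2 scale (adjusted p = 0.00208, without the block 0.126).

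Other lists showed few calls. Of 10 tested interferon response genes 0 rose and 2 fell, among them USP18, a deconjugase of ISG15 (-0.53 ± 0.13, adjusted p = 0.00638). Among the 11 low members of that list ISG20, an RNA exonuclease, rose by 1.03 ± 0.19 (adjusted p = 0.000753). None of 30 tested proteasome genes was called (1 had an unadjusted p below 0.05, and voom called 0), and none of 13 tested housekeeping genes (3 had one, and voom called 0). Of 10 tubulins TUBB3 rose (0.77 ± 0.19, adjusted p = 0.00924), and of 20 heat shock chaperones HSPA8 fell (-0.39 ± 0.10, adjusted p = 0.00902, without the block 0.0585). Of 66 tested respiratory chain genes 2 fell and 0 rose, with a median of -0.19. These were NDUFA8, described with the other backgrounds, and ATP5H, a subunit of ATP synthase (-0.31 ± 0.10, adjusted p = 0.0329, without the block 0.135). Of 9 tested epithelial markers 2 rose, CLDN4 and KRT19 (0.57 ± 0.12, adjusted p = 0.00164), and 1 fell, CDX2, with EPCAM at 1875 TPM in siVPS37AC and 2003 TPM in siVPS37ABC. VIL1, a marker that was low, fell by 0.52 on the log2 scale (adjusted p = 0.039, without the block 0.235). Of the markers of fibroblasts, leukocytes and endothelium fixed for this check (27 genes), 5 were in the table and all were low. The leukocyte markers among them summed to between 10.7 and 12.4 TPM in siVPS37AC and between 10.3 and 12.3 TPM in siVPS37ABC. Inside that sum CSF1R, a receptor best known from macrophages, rose from 0.318, 0.744 and 0.524 TPM to 1.68, 1.79 and 2.15 TPM (low, adjusted p = 8.41e-05) and CD14 fell from 5.20, 8.12 and 6.82 TPM to 4.43, 4.46 and 1.99 TPM (low, adjusted p = 0.0105, without the block 0.0596). Their part in the other results was not tested.

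Levels in siCTRL, a parallel group also collected at 72 h, show where the leading genes stood without any VPS37 siRNA. CDKN1A was at 13.6 ± 5.12 TPM in siCTRL (mean ± SD, n = 3), 23.2 ± 7.09 TPM in siVPS37AC and 92.9 ± 8.53 TPM in siVPS37ABC, with siVPS37AC against siCTRL at 0.74 ± 0.22 (adjusted p = 0.0254, without the block 0.108). DUSP5 was at 83.4 ± 19.9, 139 ± 32.8 and 409.5 ± 26.3 TPM in that order (siVPS37AC against siCTRL 0.73 ± 0.16, adjusted p = 0.0042). CXCL8 was at 23.7 ± 11.7, 34.9 ± 11.05 and 126 ± 32.8 TPM (siVPS37AC against siCTRL 0.60 ± 0.31, adjusted p = 0.222). The means of these 3 genes were lowest in siCTRL and highest in siVPS37ABC, and the step from siCTRL to siVPS37AC was called for CDKN1A and DUSP5 and not for CXCL8. FTL was at 3287 ± 426, 2789 ± 833 and 7108 ± 646 TPM (siVPS37AC against siCTRL -0.27 ± 0.18, adjusted p = 0.377), so its siVPS37AC mean was not above the control. SQSTM1 was at 437 ± 65.3, 567 ± 64.3 and 1275 ± 59.8 TPM (siVPS37AC against siCTRL 0.38 ± 0.12, adjusted p = 0.0395, without the block 0.117). HIST1H2BM, a core histone, was at 201 ± 27.4, 63.4 ± 9.44 and 38.6 ± 13.3 TPM (siVPS37AC against siCTRL -1.65 ± 0.17, adjusted p = 6.5e-07), and it fell again, by 0.76 on the log2 scale, when VPS37B siRNA was added (adjusted p = 0.00377). HIST1H1D was at 642 ± 108, 268 ± 23.5 and 127 ± 22.6 TPM (siVPS37AC against siCTRL -1.25 ± 0.14, adjusted p = 1.45e-06). Over all tested genes 762 (11.8%) were called in siVPS37AC against siCTRL, in a comparison that shares its siVPS37AC libraries with the main one.

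The same VPS37B siRNA was added to 3 other backgrounds in libraries that share none with the comparison above: to siVPS37A (giving siVPS37AB), to siVPS37C (giving siVPS37BC) and to cells without another VPS37 siRNA (siVPS37B against siCTRL). VPS37B was lower in each, with log2 differences of -3.95 ± 0.18, -3.82 ± 0.18 and -4.23 ± 0.18 in that order beside -3.87 ± 0.18 here. Each library's description ends in a number, called the library number here. What it stands for is not stated, and some libraries of different replicate numbers share it. The pairs compared here share a library number in all 3 replicates. In contrast, siVPS37B and siCTRL share it in replicate 3 only, siVPS37AB and siVPS37A in replicate 3 only, and siVPS37BC and siVPS37C in none. The siVPS37AC and siCTRL libraries, compared in the paragraph above, share it in no replicate either. In siVPS37AB against siVPS37A 513 genes (7.94%) were called (4.78% higher, 3.16% lower), in siVPS37B against siCTRL 607 (9.4%, with 4.61% higher and 4.78% lower) and in siVPS37BC against siVPS37C 5 (0.0774%, with 0% higher). Those 5, named after their values were seen, were VPS37B, NDUFA8, THBS1, CHMP4C and STX3, all lower, while 0 genes were called higher in limma and in voom (354 had an unadjusted p below 0.05 in limma).

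Across the 6457 genes other than VPS37B, differences in the siVPS37A and siVPS37C background had a Pearson r of 0.68 with those in the siVPS37A background, 0.42 with those in control cells and 0.28 with those in the siVPS37C background. These correlations are across genes, which are not independent replicates, and the libraries of a replicate number share a batch. Of the 375 genes called higher here, 361 (96.3%) were also positive when VPS37B siRNA was added to siVPS37A, 294 (78.4%) when it was added to control cells and 284 (75.7%) when it was added to siVPS37C, where 55.6%, 46.1% and 56.1% of all tested genes were positive. Their median difference was 0.59 here and 0.42, 0.21 and 0.12 in those backgrounds. Of the 413 genes called lower here other than VPS37B, 379 (91.8%), 331 (80.2%) and 267 (64.7%) were negative, where 44.4%, 53.9% and 44.0% of all tested genes were. These genes were chosen by their values here, which moves their median here away from 0 and not those of the other backgrounds. How much of the gap comes from that choice was not tested. Among the other backgrounds, the genes called here had the largest values with siVPS37A and the smallest with siVPS37C.

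**Figure D4:**
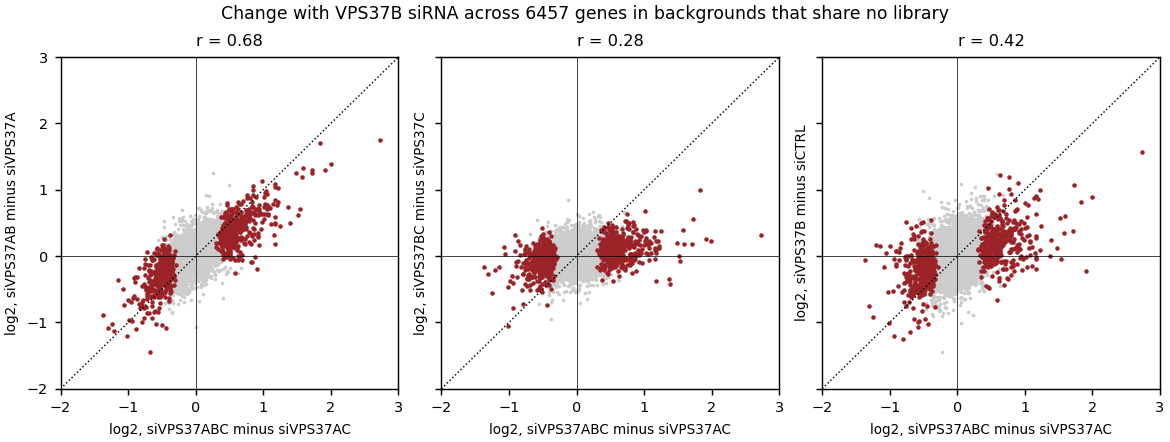
Log2 differences on addition of VPS37B siRNA for 6457 genes, with siVPS37ABC minus siVPS37AC on the x axis and siVPS37AB minus siVPS37A, siVPS37BC minus siVPS37C or siVPS37B minus siCTRL on the y axes. Dark red genes were called in siVPS37ABC against siVPS37AC, and the dotted line marks equal values. The cloud is steepest in the left panel (r = 0.68) and nearly flat in the middle panel (r = 0.28).

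The test of the difference between backgrounds called 130 genes (2.01%) against control cells, 99 (1.53%) against the siVPS37C background and 1 (0.0155%) against the siVPS37A background. Without the block these counts were 23 (0.356%), 9 (0.139%) and 0 (0%). With the library number as the block in place of the replicate number they were 20, 85 and 0. The median SE of these differences was 0.20, and a count of 1 does not show that siVPS37AC and siVPS37A cells responded alike. For DUSP10, as an example, the difference from the siVPS37A background was 0.83 ± 0.20, and 123 genes had a higher and 288 a lower value here at an unadjusted p below 0.05. The gene that differed from the siVPS37A background, named after its value was seen, was PTPMT1, a mitochondrial phosphatase of cardiolipin synthesis. It rose from 22.9, 30.7 and 25.9 TPM to 51.1, 55.3 and 45.2 TPM here (0.91 ± 0.14), against -0.19 ± 0.14 in the siVPS37A background (adjusted p of the difference = 0.0328), a call lost without the block. Voom on the recovered reads called PTPMT1 and JAG1, a Notch ligand (0.68 ± 0.10 here, -0.06 ± 0.10 with siVPS37A).

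Several of the strongest rises differed between backgrounds. DUSP10 rose by 1.54 here and by 0.71 in the siVPS37A background, but was at -0.05 in control cells and -0.07 in the siVPS37C background (adjusted p of the differences = 7.51e-05 and 6.07e-05). KRTAP2-3 had 1.91 here, 1.30 with siVPS37A, -0.22 in control cells and 0.25 with siVPS37C (differences 2.13 ± 0.27, adjusted p = 7.51e-05, and 1.66 ± 0.27, adjusted p = 0.00169, the latter 0.0849 without the block). LAMB3 had 1.37 here and 0.74 with siVPS37A, against 0.00 in control cells and -0.35 with siVPS37C (adjusted p = 0.00323 and 0.000223). In these genes the value here was thus higher than with VPS37C siRNA or none, while the difference from the siVPS37A background was not called. FTL gave the largest difference from the siVPS37C background among well expressed genes (1.82 ± 0.26, adjusted p = 0.000388), with 1.39 here and -0.43 there, and it had 0.50 ± 0.18 with siVPS37A (adjusted p = 0.1). SQSTM1 (1.17 here, 0.85 with siVPS37A, 0.30 in control cells, adjusted p of the difference = 0.00552) and SLC7A11 (1.48, 1.26 and 0.12 in that order, adjusted p = 0.00394, without the block 0.287) also differed from control cells, and neither differed by this test from the siVPS37A background.

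By the test of the difference, 0 members of the NRF2, NF-kB and core histone lists differed from the siVPS37A background. The autophagy list held 6 higher calls here and 8 with siVPS37A, and the list of YAP and TGF-beta targets 4 lower calls here and 5 with siVPS37A. Of the 15 NRF2 targets, 9 rose here, 5 rose and 1 fell in the siVPS37A background, 1 rose and 1 fell in control cells and 0 were called in the siVPS37C background. The difference from control cells was called for 7 of the 15 and the difference from the siVPS37C background for 5. Of the 17 NF-kB targets 8 rose here, 7 with siVPS37A, 1 in control cells and 0 with siVPS37C, and the difference was called for 2 and 3 of them. CXCL8 was not among those: it had 1.83 here, 1.70 ± 0.31 with siVPS37A, 0.82 ± 0.31 in control cells (adjusted p = 0.0932) and 0.99 ± 0.31 with siVPS37C (adjusted p = 0.282), and no difference was called (adjusted p between 0.249 and 0.972). Of the 28 core histone genes 12 fell here, 1 fell with siVPS37A and 0 were called in either of the other backgrounds, and the difference was called for 4 against control cells and 2 against the siVPS37C background. HIST1H2BE was at -0.83 here and 0.20 in control cells (adjusted p of the difference = 0.00323, without the block not called).

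**Figure D5:**
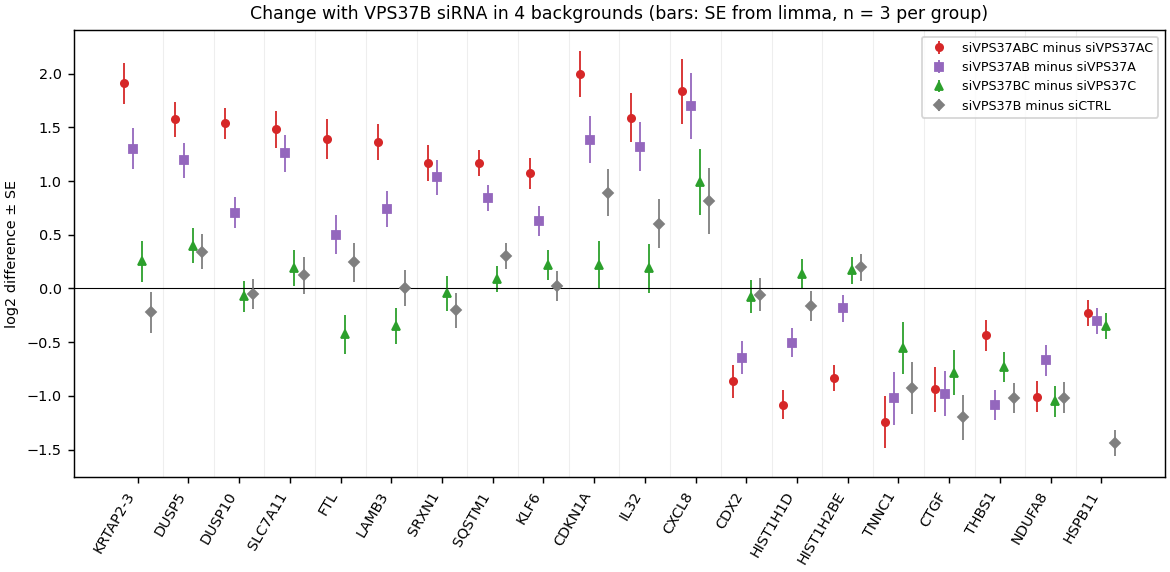
Log2 difference with its SE (limma, n = 3 per group) on addition of VPS37B siRNA for 20 genes, in the background of siVPS37AC (red circles), siVPS37A (purple squares), siVPS37C (green triangles) and siCTRL (grey diamonds). DUSP10, LAMB3 and SRXN1 were raised in the background of siVPS37AC and siVPS37A, NDUFA8 was near -1 in 3 backgrounds, and HSPB11 was lowest in siVPS37B against siCTRL.

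NDUFA8, HSPB11 and THBS1 had negative differences in all 4 additions of VPS37B siRNA. NDUFA8, a subunit of respiratory complex I, fell from 334, 287 and 312 TPM to 143, 163 and 156 TPM here (-1.01 ± 0.14, adjusted p = 3.74e-05). It was at -1.02 ± 0.14 in control cells, -1.05 ± 0.14 with siVPS37C and -0.67 ± 0.14 with siVPS37A, and none of the differences between backgrounds was called. HSPB11, a protein of intraflagellar transport, went from 883, 804 and 875 TPM to 636, 724 and 837 TPM with overlapping groups (-0.23 ± 0.12, adjusted p = 0.232). In control cells it had -1.44 ± 0.12 (adjusted p = 2.14e-08), and the difference between these backgrounds was 1.21 ± 0.17 (adjusted p = 0.000303). THBS1, a matrix glycoprotein, had -0.44 ± 0.14 here, -1.09 ± 0.14 with siVPS37A, -0.73 ± 0.14 with siVPS37C and -1.02 ± 0.14 in control cells, and none of those differences was called (adjusted p between 0.142 and 0.527).

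Heptamers in 3′ UTRs were ranked over 15288 heptamers and 6166 tested genes with a GENCODE v29 transcript. The rank is by the standardized difference in mean residual between the genes that hold a heptamer and the rest. Residuals are the log2 values left after a fit on log2 UTR length, GC content and the square of each. The shares of called genes below are without that adjustment. The heptamer TTAACAA ranked first for lower values in the other 3 additions of VPS37B siRNA and second here, behind CATGTCC. Genes holding it (759) were called lower here in 8.56% and higher in 3.69% of cases, and the 5407 genes without it in 5.86% and 6.21%. In siVPS37B against siCTRL these shares were 14.1% lower and 1.19% higher with it, and 3.44% and 5.10% without it. The VPS37B transcript of 3028 bases holds the same letters 1 time, at base 510, ahead of its 3′ UTR, which follows base 1240. The sequence of the siRNA is not given in the sources used here, and whether it pairs with these sites was not tested. Sites in genes described above are shown with the heptamer in capitals, since this is the sequence feature most associated with lower values over the additions.
NDUFA8: atcacaaacaTTAACAAaaaagttaac
HSPB11: gcatgattttTTAACAAtatatttaaa
LMNB1: ttatgtgacaTTAACAAataaaaaagc
DUSP7: ttttttttttTTAACAAaaagtgttat
BIRC5: cctctactgtTTAACAAcatggctttc
MCM6: gttgcagcttTTAACAAcagatggcat
BIRC5 had -0.68 here, -0.55 in control cells, -0.28 with siVPS37A and -0.30 with siVPS37C. LMNB1 had -0.80, -0.40, -0.46 and -0.27 in that order, and DUSP7 -0.58, 0.01, -0.38 and -0.17. MCM6 was the only 1 of the 11 S phase genes that fell to hold the heptamer, and BIRC5 the only 1 of the 6 mitosis genes. None of the called members of the core histone list with a matched 3′ UTR (7) or of the YAP and TGF-beta list (4) held it. Few members of these lists held it at all, called or not. Among members with a matched 3′ UTR these were 1 of 41 S phase, 4 of 36 mitosis, 1 of 16 core histone and 2 of 15 YAP and TGF-beta genes. Over all 6166 genes it was 759, so these small counts are given as a description only.

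Promoter motifs were counted on both strands in the RefSeq windows of 300 bases for 5470 of the tested genes. The AP-1 motif TGANTCA was in 8.41% of 309 genes called higher, 3.85% of 338 called lower, 3.93% of all tested genes and 7.76% of all 27305 promoters in the table. The ARE letters TGACNNNGC, which overlap TGANTCA where both match, were in 17.5%, 12.1%, 15.7% and 13.6% in that order. The NF-kB motif, searched in its usual degenerate form of 10 letters, was in 16.2%, 14.2%, 12.9% and 10.8%. The cell cycle element CHR, TTTGAA, was in 5.83% of the genes called higher, 12.4% of those called lower, 8.96% of tested genes and 15.4% of all promoters. The E2F letters TTTCGCGC were in 0.324%, 3.85%, 1.28% and 0.546%, whereas TTTGGCGC was in 0.971%, 0.888%, 1.21% and 0.659%. The sterol element TCACNCCAC was in 2.27%, 0.296%, 1.04% and 1.15%, the CRE TGACGTCA in 5.83%, 6.21%, 3.91% and 1.98%, in that order. CCAAT was in 38.8%, 42.6%, 38.7% and 35.7%, TATAAA in 8.74%, 7.40%, 5.50% and 12.0%, and the p53 motif of 10 letters in 7.12%, 5.03%, 5.01% and 6.54%. In total 11 motifs were counted. A match describes letters in these windows, and binding was not measured.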

How the data were processed

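RNA of 27 DLD1 libraries (9 groups of 3) was measured with an Ion AmpliSeq panel of amplicons for human transcripts, per the labels' protocols. The table deposited by the authors holds TPM, each library summing to 1000000. Build hg19, DESeq2 1.18.1 and HTSeq 0.6.0 appear in the submitters' processing notes. The table has 10470 named genes, and 2157 empty lines with no identifier were dropped.

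The TPM values were not counts, which the planned test had allowed for, so limma 3.58.1 (R 4.3.3) was used on log2(TPM + 1) with a trended variance prior and Benjamini-Hochberg adjustment. Tested genes averaged 10 TPM or more over all libraries. All 282690 values were whole multiples of a single-read step set by a factor of the gene and a factor of the library (tolerance 1e-06, 100% whole). The recovered reads came to between 5252496 and 14252058 per library, and limma's voom on them (905 genes called) was added after the data were seen. The model held the replicate number as a block, which the labels give as a batch. Deviations of same-numbered siVPS37ABC and siVPS37AC libraries correlated at 0.36, 0.46 and 0.15, and those of different numbers between -0.35 and -0.05.

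Genes were named by this rule: the targets; the 12 largest rises and falls among called genes that averaged 50 TPM or more and agreed in sign over the pairs; up to 4 called members of each list with the smallest p, or 2 where none was called; the 4 highest and 4 lowest called genes of each difference between backgrounds that averaged 50 TPM or more over its libraries; and NDUFA8, HSPB11 and THBS1. The members and lists were chosen with earlier results of these data known. Promoters came from RefSeq (GRCh38.p14) and 3′ UTRs from GENCODE v29 (5470 and 6166 tested genes). The 3′ UTRs were matched by RefSeq accession, and promoters by RefSeq accession, then by symbol, then by a synonym held by a single gene. Alternatives were other filters, pseudocounts, scaling and blocks, fewer groups, and each library or pair left out. The test was checked on simulated data. The replicates may share cultures in ways the labels do not give. The p-values thus measure only the spread between these libraries, pooled over all 9 groups after the replicate block and moderated by the variance prior. A few list members named by the rule are not reported here.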

Additional observations from a re-analysis of the deposited data

Results flagged for a closer look

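For 13 genes the change on adding VPS37B siRNA differed between backgrounds by a test of the difference itself, among the genes that were named for these differences. Against siVPS37B minus siCTRL, the value in siVPS37ABC minus siVPS37AC was higher by 1.37 ± 0.23 for SRXN1 (adjusted p = 0.00323), 1.36 ± 0.23 for LAMB3 (0.00323), 1.24 ± 0.23 for DUSP5 (0.00489) and 1.21 ± 0.31 for SFN (0.0376), a 14-3-3 protein of growth arrest (log2 ± SE, limma, n = 3 per group). It was lower, at -1.26 ± 0.24, for HIST1H2BM (0.00499), -1.14 ± 0.27 for the chemoattractant RARRES2 (0.0235), -1.03 ± 0.18 for HIST1H2BE (0.00323) and -1.02 ± 0.19 for the selenium-binding protein SELENBP1 (0.00474). Against siVPS37BC minus siVPS37C it was higher by 1.82 ± 0.26 for FTL (0.000388), 1.71 ± 0.23 for LAMB3 (0.000223), 1.40 ± 0.32 for IL32 (0.0238) and 1.21 ± 0.23 for SRXN1 (0.00626). It was lower, at -1.22 ± 0.19, for HIST1H1D (0.00136), -1.005 ± 0.18 for HIST1H2BE (0.00309), -0.86 ± 0.21 for GDPD3 (0.0329) and -0.83 ± 0.18 for the mitochondrial assembly factor SDHAF3 (0.0171). Without the block the calls of SFN, HIST1H2BM, RARRES2, SELENBP1, IL32, HIST1H1D, GDPD3, SDHAF3 and both of HIST1H2BE were lost. With the library number as block in place of the replicate number, DUSP5, SFN, RARRES2, HIST1H2BE, SELENBP1, IL32, GDPD3 and SDHAF3 lost theirs, and FTL, LAMB3, SRXN1, HIST1H2BM and HIST1H1D did not.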

How the results depend on the processing

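Among tested genes named by the rule, direction held for every gene result under each alternative run, except for VPS37C. Low genes, VPS37A among them, were not followed through these alternatives. Its difference of -0.00 was 0.56 with quantile normalization (adjusted p = 0.0545), and 0.0014 without the pair of replicate 2, and leaving out libraries or pairs gave -0.19 (without pair 1) to 0.18 (without pair 3). The count of 789 called genes was 281 with no replicate block, 343 with a filter at 50 TPM, 440 with only the groups compared, and 347 with voom on recovered reads and no block. It was 273 and 350 without the pair of replicate 1 or 2, and 397 to 713 with a single library left out. The 375 higher calls were 159 with no block, 584 with no filter, 146 at 50 TPM, 194 with voom and no block, 147 and 187 without those pairs, and 207 to 334 with a library left out. The 414 lower calls were 122, 197 at 50 TPM, 188 with only the groups compared, 153 with voom and no block, 126 and 163 without those pairs, and 190 to 396. Against control cells the 130 differences were 23 with no block and also with voom and no block, 218 with no filter, 42 at 50 TPM and 20 with the library number as block. They were 6, 32 and 22 without pair 1, 2 or 3, and 69 to 130 with a library left out. Against the siVPS37A background the 1 gene became 0 with no block (also with voom), with no filter, at 50 TPM, with the library number, with only the groups compared and without pair 1 or 2. It became 2 with quantile normalization and 2 with voom, 25 without pair 3, and 0 to 18 with a library left out, the 18 being without siVPS37A replicate 3. Against the siVPS37C background the 99 differences were 9 with no block, 11 with voom and no block, 157 with no filter, 56 at 50 TPM, 161 with only the groups compared, 7, 19 and 118 without pair 1, 2 or 3, and 41 to 91 with a library left out. Of 131 gene results 85 stayed on their side of the threshold with no replicate block and 46 lost their call, and with voom and the block all 131 stayed. The cause of these changes was not tested, apart from fewer genes at 50 TPM and fewer libraries where some were left out. VPS37A, at 3 to 19 reads per library, is limited by depth. Its siVPS37ABC level was below that of siVPS37AC in pair 1 and above it in pairs 2 and 3, so the sign of its difference rests on pair 1.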
